A study of Mus musculus with 12 samples.

Results

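The genes described here encode ubiquitin ligases of the RING, TRIM and F-box families. They were followed in cultured mouse aortic endothelial cells, wild type or labelled null for the transcription factor Ets1, Ets2 or both. They were taken by symbol from the platform's gene table: every gene whose symbol starts with Rnf, Trim or March and a digit, or with Fbxo, Fbxl, Fbxw, Lnx, Siah or Znrf. The rule found 152 of the 11015 genes measured, among them 60 Rnf, 32 Trim, 28 Fbxo, 15 Fbxl, 10 Fbxw, 3 Znrf, 2 Lnx and 2 Siah genes. No symbol of the form March and a digit was in the table. It lists 6 genes of that family under the present prefix Marchf, and these were kept apart as a list of their own. All 152 genes were tested without a filter on dim values, and 72 of them lay above the median of all genes in mean level.

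Ubiquitin is passed from an activating enzyme (E1) to a conjugating enzyme (E2) and, with the help of a ligase (E3), to a chosen protein, which is then often degraded by the proteasome. RING ligases, many of which carry the symbol Rnf, bring a loaded E2 next to the substrate. So do TRIM proteins, which join a RING to B-box and coiled-coil parts. F-box proteins are the exchangeable substrate receptors of cullin ligases, with leucine-rich repeats in the Fbxl, WD40 repeats in the Fbxw and other domains in the Fbxo genes. In endothelial cells ubiquitin ligases are known for the turnover of junction proteins, growth factor receptors, Notch pathway proteins and inflammatory signalling proteins.

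Cells came from mice aged 4 weeks and were grown with serum, heparin and endothelial growth supplement. Wild-type cells (Ets1+/+; Ets2+/+) and Ets1 null cells (Ets1-/-; Ets2fl/fl) had received a lentivirus for egfp, whereas Ets2 null cells (Ets1+/+; Ets2fl/fl) and Ets1/2 null cells (Ets1-/-; Ets2fl/fl) had received one for egfp with Cre, the recombinase that cuts out floxed DNA. Every group with Ets2 loss thus also carried Cre, and floxed Ets2 was present in Ets1 null but not in wild-type cells. For both single nulls the description line calls the deleted gene wild type, so groups were taken from titles and genotypes. The labels give 3 arrays per group. In 20521 of 20523 probe sets the values of the third column labelled Ets1/2 null were the average of its companions (within 1e-06), and it was left out, which left n = 2 there and n = 3 in each other group. The titles do not say whether replicates came from separate animals, so p-values measure the spread between these arrays.

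Values are log2 levels after subtraction of each array's median over all genes, called centred values, so 0 is the median gene of that array. That median was 8.69 and 8.733 in the arrays labelled Ets1/2 null and 9.37 to 9.498 in the other 9. The targeted genes did not follow every label. The brightest probe set of Ets1 ranged from 0.41 to 0.89 on the wild-type arrays, from -1.16 to -0.32 on those without Ets1, from 0.09 to 0.43 on those without Ets2, and was 1.29 and 1.6 on the pair labelled Ets1/2 null. For Ets2 the brightest probe set lay between 0.35 and 1.21, 0.81 and 1.05, -0.05 and 0.68, and 0.94 and 2.28 in the same order. Which part of either gene the probes cover was not analysed here, so a level outside a deleted part would check nothing. On that probe set Ets1 was thus lowest where Ets1 alone is labelled null and highest on the pair labelled Ets1/2 null, against that label. Of the 3 dimmer Ets1 probe sets one gave the same order (1.08 and 1.12 on the pair, 0.23 to 0.71 in wild type), one overlapped wild type on the pair (-1.33 and -0.71 against -1.21 to -1.02), and one went with the label (-2.25 and -1.64 against -0.68 to -0.65). All 4 were lower on every Ets1 null array than on any wild-type array. Ets2 on the Ets2 null arrays overlapped wild type, and on the pair labelled Ets1/2 null it was not below wild type. A dimmer Ets2 probe set gave -1.76 to -1.33 in wild type and -1.61 to -1.51 in Ets1 null. It gave -1.8 to -1.63 in Ets2 null, and -1.66 and -0.37 on the pair, so it was not lower there either. Every result below for the double null therefore speaks of arrays labelled so. A single null, a loss or an array without a gene likewise follows the labels below. By Xist and the Y-linked Eif2s3y, male cells gave wild-type array 1 and the 3 Ets2 null arrays, and female cells the other 7. Of 16 endothelial markers 5 were measured (Kdr, Eng, Flt1, Cd34 and Egfl7), and Pecam1, Cdh5 and Vwf were not analysed here. Their mean centred level ranged from -1.37 to 0.07 on the wild-type arrays, from -1.83 to -1.58 on those without Ets1, from -0.9 to -0.21 on those without Ets2 and from -1.57 to -1.23 on the pair labelled Ets1/2 null. Over all 8 fibroblast markers, all measured, the mean was 0.5 to 1.04, -0.21 to 0.42, 0.09 to 1.42 and 0.72 to 1.29. Of 6 epithelial markers 4 were measured (Epcam, Krt8, Krt19 and Msln), with a mean of -2.09 to 0.28, 0.35 to 0.79, -1.43 to -1.07 and 0.11 to 0.2. Of 8 leukocyte markers 4 (Cd68, Lyz2, Cd14 and Csf1r) gave -2.23 to -1.61, -1.93 to -1.73, -2.78 to -2.31 and -2.23 to -1.8, and of 8 smooth muscle markers 6 gave -1.19 to 0.09, -1.3 to 0.14, -1.29 to -0.87 and -0.97 to 0.73. None of 6 markers of striated muscle was measured. The part of these cell types in the results below was not tested, and in bulk samples a change in the mix of cells and a change per cell cannot be told apart.

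Ets factors bind DNA around the letters GGAA, so the 250 bases before the annotated start of the ligase genes are shown for 4 genes that the results turn on. Sequences and positions are RefSeq's for GRCm38.p6, read 5′ to 3′ along the gene, and capitals mark GGAA or its complement TTCC and, where present, the longer ETS core CCGGAAGT or its complement ACTTCCGG. Rnf130 (chr11:50025081-50025330, plus strand) and Lnx1 (chr5:74702904-74703153, minus strand) are the only 2 members called in a single null. Rnf181 (chr6:72362433-72362682, minus strand, 1 of 2 windows) and Fbxo8 (chr8:56550904-56551153, plus strand) were called in the arrays labelled Ets1/2 null and hold the longer core.
Rnf130: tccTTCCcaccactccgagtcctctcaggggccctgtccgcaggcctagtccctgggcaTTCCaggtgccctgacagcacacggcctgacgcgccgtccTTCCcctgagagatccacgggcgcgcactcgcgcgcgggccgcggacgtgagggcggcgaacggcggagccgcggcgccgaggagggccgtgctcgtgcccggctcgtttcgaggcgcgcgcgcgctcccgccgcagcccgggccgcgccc
Lnx1: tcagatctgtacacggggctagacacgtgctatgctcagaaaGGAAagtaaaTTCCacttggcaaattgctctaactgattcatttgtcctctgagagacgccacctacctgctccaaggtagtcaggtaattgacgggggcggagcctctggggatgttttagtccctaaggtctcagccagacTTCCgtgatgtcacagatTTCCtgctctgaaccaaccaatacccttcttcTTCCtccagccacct
Rnf181: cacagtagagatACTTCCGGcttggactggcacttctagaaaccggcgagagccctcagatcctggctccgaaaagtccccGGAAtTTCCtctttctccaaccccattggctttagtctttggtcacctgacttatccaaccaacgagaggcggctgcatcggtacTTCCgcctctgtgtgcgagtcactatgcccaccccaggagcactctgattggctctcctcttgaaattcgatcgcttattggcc
Fbxo8: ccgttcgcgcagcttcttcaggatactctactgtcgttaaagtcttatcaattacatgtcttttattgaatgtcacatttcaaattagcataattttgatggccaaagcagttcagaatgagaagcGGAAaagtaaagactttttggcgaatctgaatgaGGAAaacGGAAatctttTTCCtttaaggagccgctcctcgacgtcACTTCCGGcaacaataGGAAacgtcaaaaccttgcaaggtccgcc
The Rnf130 window holds 3 and the Lnx1 window 5 matches to GGAA on either strand, and neither holds the longer core. In Rnf181 the core starts 238 bases and in Fbxo8 45 bases before the start. RefSeq windows were at hand for 120 of the 152 members (165 windows). The longer core was in 6.06% of the members' windows, 5.9% of the windows of all genes on the table and 2.88% of all 32851 windows, and GGAA, which is part of it, in 91.5%, 92.9% and 93.4%. The share in the members' windows was thus close to that over the measured genes. Of the 9 members with the core (Fbxl21, Fbxo8, Fbxw9, Rnf168, Rnf181, Rnf41, Rnf6, Trim44 and Trim46), none was called in a single null, where 1 member each was called. In the arrays labelled Ets1/2 null 3 were called higher against wild type (Fbxo8, Rnf181 and Trim46, 16.4% of all genes were), none of them on the deposited values. Against Ets1 null 5 were higher and 1 lower (Rnf41), where 17.4% and 11.3% of all genes were. Against Ets2 null 3 were higher and 2 lower (Fbxw9 and Rnf41), where 17.1% and 13.2% of all genes were. Of these calls only the falls were also called in the same direction on the deposited values.

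Ets1 null cells were first compared with wild type. Rnf130, a membrane-anchored RING ligase related to the fly Goliath protein, was the only one of the 152 ligase genes called, and the only gene called among all 11015 (0.00908%). Its centred level was 1.58, 0.80 and 1.05 on the wild-type arrays and -2.65, -2.62 and -2.15 on those without Ets1. On the arrays without Ets2 it was 1.60, 1.63 and 2.21, and on the pair labelled Ets1/2 null -0.59 and -0.82. Ets1 null arrays thus lay lowest, those labelled Ets1/2 null between, and the wild-type and Ets2 null arrays highest, and no groups overlapped. The Ets1 probe set above was likewise lowest on the Ets1 null arrays. The epithelial markers were higher on every Ets1 null array than on any wild-type array, mainly Krt19 (3.35 ± 1.17, adjusted p = 0.505) and Msln (3.06 ± 1.17, adjusted p = 0.535), and the endothelial and fibroblast markers lower. The part of either in the Rnf130 result was not tested. Rnf130 fell by 3.62 ± 0.25 (log2 difference ± limma's SE, adjusted p = 0.00153) in Ets1 null cells, which is 12.3-fold lower. In the arrays labelled Ets1/2 null it was 3.61-fold lower than in wild type (-1.85 ± 0.28, adjusted p = 0.00225) and 3.4-fold higher than in Ets1 null (1.77 ± 0.28, adjusted p = 0.00285). Ets2 loss alone gave 0.67 ± 0.25 (adjusted p = 0.204). A second, much dimmer Rnf130 probe set, at a mean centred level of -2.09, differed by -0.14 ± 0.15 (adjusted p = 0.834) in Ets1 null and by -0.23 ± 0.17 (adjusted p = 0.32) in the arrays labelled Ets1/2 null against wild type. Between the arrays labelled Ets1/2 null and Ets1 null it differed by -0.10 ± 0.17 (adjusted p = 0.69). With only the 6 arrays compared in the fit, the fall in Ets1 null kept its size and had an adjusted p of 0.0639.

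The other members were not called in Ets1 null cells. At an unadjusted p under 0.05 there were 21 members, against 8.71% of all genes, and 34 members (22.4%) had groups that did not overlap, against 18.5% of all genes. The median difference was -0.03 for the members and -0.03 for all genes. The largest differences without overlap included Trim25, which loads ubiquitin on the viral RNA sensor RIG-I, at -2.88 ± 1.21 (adjusted p = 0.563). Its wild-type arrays read -0.16, -1.41 and -4.23 and its Ets1 null arrays -4.92, -4.79 and -4.73, so the spread within wild type exceeded the difference. Rnf128 (GRAIL), a relative of Rnf130 known from T cell anergy, read -1.43, -2.58 and -3.22 on the wild-type arrays against -4.30, -4.50 and -4.33 on those without Ets1 (-1.97 ± 0.57, adjusted p = 0.419). Rnf19b differed by -1.10 ± 0.20 (adjusted p = 0.211), from -0.22, -0.23 and 0.08 to -1.46, -1.14 and -1.07. In the other direction Fbxl16, an F-box protein with leucine-rich repeats, read -1.56, -1.45 and -0.84 on the wild-type arrays against -0.05, 0.14 and 0.11 on those without Ets1 (1.35 ± 0.29, adjusted p = 0.274). Fbxl16 was also higher in the arrays labelled Ets1/2 null, at 0.11 and 0.58, than in wild type (1.63 ± 0.33, adjusted p = 0.00677) and than in Ets2 null (1.29 ± 0.33, adjusted p = 0.0176), where the arrays read -0.64, -1.58 and -0.61. Those calls were lost without the second array labelled Ets1/2 null (1.39, adjusted p = 0.0538, and 1.05, adjusted p = 0.11).

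**Figure D1:**
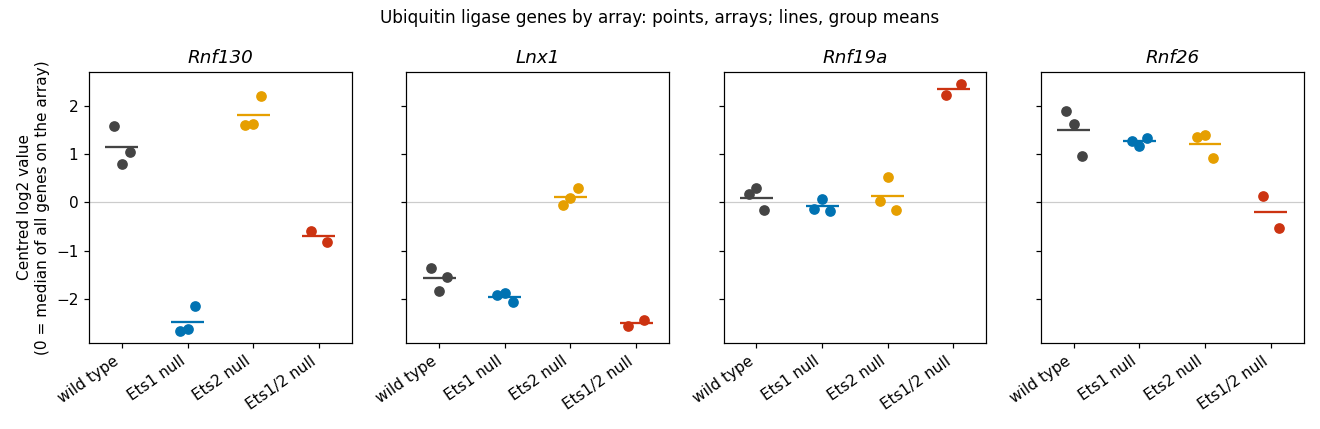
Centred log2 level of Rnf130, Lnx1, Rnf19a and Rnf26 on each of the 11 arrays by labelled group; points are arrays, short lines group means, and 0 is the median gene of an array. Rnf130 is lowest in the 3 Ets1 null arrays (-2.65 to -2.15), Lnx1 highest in the 3 Ets2 null arrays (-0.04 to 0.29), and Rnf19a (2.23 and 2.45) and Rnf26 (0.14 and -0.53) stand apart in the 2 arrays labelled Ets1/2 null.

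In Ets2 null cells 1 member was called against wild type, Lnx1, the ligase that targets Numb, an inhibitor of Notch. Among all genes 0.436% were called and 0.658% of the members. Lnx1 read -1.36, -1.83 and -1.54 on the wild-type arrays against -1.91, -1.87 and -2.07 on those without Ets1. On the arrays without Ets2 it read -0.04, 0.08 and 0.29, and on the pair labelled Ets1/2 null -2.55 and -2.43. All 3 Ets2 null arrays lay above every other array and both arrays labelled Ets1/2 null below every other. Lnx1 rose by 1.69 ± 0.15 (adjusted p = 0.00771) or 3.22-fold in Ets2 null cells, and was lower in the arrays labelled Ets1/2 null than in wild type (-0.91 ± 0.17, adjusted p = 0.0051) and than in Ets2 null (-2.60 ± 0.17, adjusted p = 8.99e-05). Against Ets1 null the difference was -0.54 ± 0.17 (adjusted p = 0.0423) and was lost when any 1 of 7 arrays was left out, with an adjusted p of 0.163 without the first array labelled Ets1/2 null. Its relative Lnx2 was not called (-0.25 ± 0.16, adjusted p = 0.436, in Ets2 null).

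The leukocyte markers were lower on every Ets2 null array than on any wild-type array, Cd68 by -1.04 ± 0.35 (adjusted p = 0.17) and Cd14 by -1.25 ± 0.66 (adjusted p = 0.336), and their part in the Lnx1 result was not tested. Sex and the Ets2 null group went together except for wild-type array 1, which was male and read -1.36 for Lnx1. With a term for male arrays the Lnx1 difference in Ets2 null was 1.47 with an adjusted p of 0.0948, and no member was called (0.0363% of all genes). With only the arrays compared the adjusted p for Lnx1 was 0.0919, and with the replicate number as a block it was 0.0573. Lnx1 was a dim gene, at a mean centred level of -1.385, and drops out where the dimmest genes are left out. Without wild-type array 3, 2 members were called, Lnx1 and Trim30a (-1.75, adjusted p = 0.0437), and 0.672% of all genes.

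In all, 35 members had an unadjusted p under 0.05 in Ets2 null, against 18.9% of all genes, and 50 members had groups that did not overlap (26.9% of all genes). The median difference was 0.06 for the members and -0.01 for all genes. Trim16, which acts in the autophagy of damaged organelles, read 0.03, 0.06 and -1.23 on the wild-type arrays against -1.62, -2.02 and -3.29 on those without Ets2 (-1.93 ± 0.57, adjusted p = 0.134). Trim68 read -2.63, -1.89 and -2.00 against -0.88, -1.21 and -1.02 (1.14 ± 0.20, adjusted p = 0.0574). Rnf125, which targets RIG-I for degradation, differed by 1.26 ± 0.38 (adjusted p = 0.137) in Ets2 null and by -1.12 ± 0.38 (adjusted p = 0.498) in Ets1 null. Trim37, a ligase of peroxisomes and centrosomes, differed by -1.02 ± 0.31 (adjusted p = 0.138) and Znrf2 by -0.88 ± 0.26 (adjusted p = 0.135). Rnf167, a lysosomal ligase of the Rnf130 type, read 0.10, -0.04 and 0.51 on the wild-type arrays against 1.01, 0.92 and 1.26 on those without Ets2 (0.87 ± 0.23, adjusted p = 0.111). Fbxo5 (Emi1), an inhibitor of the anaphase-promoting complex, read 1.14 and 1.12 on Ets2 null arrays 1 and 2 and -2.11 on array 3.

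The arrays labelled Ets1/2 null held most of the calls. Against wild type 56 members (36.8%) were called, 38 higher and 18 lower relative to the array medians, where 28.3% of all genes were called, 16.4% higher and 12% lower. The median difference was 0.17 for the members and 0.11 for all genes, and 89 members had groups without overlap (52.3% of all genes). The direction rests on the centring: on the deposited values, where those arrays lie lower over most genes, 2 members were called higher and 63 lower (45.9% of all genes called, 2.32% higher and 43.6% lower), and after quantile normalization 27 higher and 21 lower (25.6% of all genes called). Of all called genes 57.8% were higher on the centred, 5.07% on the deposited and 48.5% on the quantile-normalized values. Called in the same direction with and without centring were 20 members (13.2%), against 14.3% of all genes. These were Rnf19a and Rnf207 higher and Fbxl6, Fbxl15, Fbxl18, Fbxl19, Fbxo4, Fbxo31, Fbxw5, Fbxw8, Fbxw22, Lnx1, Rnf5, Rnf7, Rnf26, Rnf40, Rnf130, Rnf216, Rnf220 and Trim8 lower. None of the other rises against wild type was called higher on the deposited values. With only the 5 arrays compared 17 members were called (12% of all genes), and without the second array labelled Ets1/2 null 35 (17.5%).

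**Figure D2:**
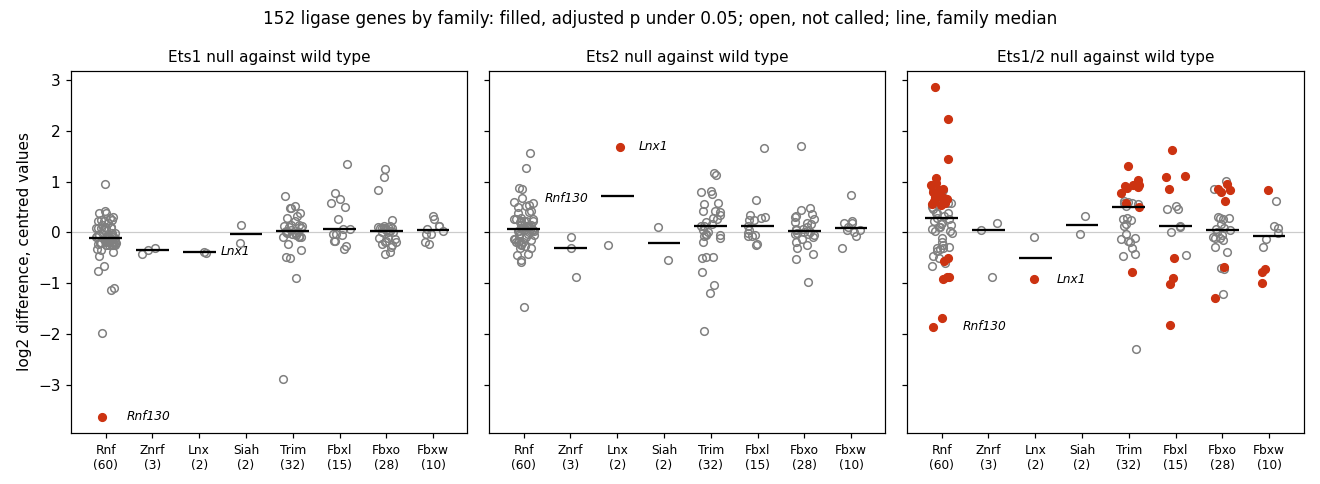
Log2 difference from wild type (centred) of the 152 ligase genes by family in Ets1 null, Ets2 null and the arrays labelled Ets1/2 null; filled points have an adjusted p under 0.05, lines are family medians. A single filled point stands in each single null, Rnf130 (-3.62) and Lnx1 (1.69), against 56 in the arrays labelled Ets1/2 null.

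Rnf19a (Dorfin), a RING-between-RING ligase that handles misfolded proteins, gave the largest rise among the members above the median level. It read 0.16, 0.29 and -0.15 on the wild-type arrays, -0.13, 0.07 and -0.18 on those without Ets1, 0.03, 0.53 and -0.17 on those without Ets2 and 2.23 and 2.45 where both are labelled null. The first 3 groups overlapped and the last stood clear of them, 4.71-fold above wild type (2.24 ± 0.22, adjusted p = 0.000372). On the deposited values the rise was 1.52 (adjusted p = 0.00041). A second Rnf19a probe set differed by -0.10 ± 0.23 (adjusted p = 0.783), and it was not called against either single null (0.11 ± 0.23, adjusted p = 0.746, and 0.10 ± 0.23, adjusted p = 0.766). The other rise held in both scalings, Rnf207, was a dim gene at 2.85 ± 0.73 (adjusted p = 0.0195), and its second probe set was lower (-0.67 ± 0.21, adjusted p = 0.0347).

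Among the ligases anchored in membranes the changes went both ways. Of 7 ligases of the endoplasmic reticulum membrane 3 were called higher and 1 lower against wild type (16.4% and 12% of all genes). On the deposited values none was higher and 3 were lower (2.32% and 43.6% of all genes). Rnf145, which acts in the sterol-dependent turnover of HMG-CoA reductase, read 2.57, 2.56 and 2.27 on the wild-type arrays against 3.04 and 3.48 on the pair labelled Ets1/2 null (0.80 ± 0.18, adjusted p = 0.0122). Its Ets1 null (1.99, 2.24 and 2.13) and Ets2 null arrays (1.88, 2.11 and 1.78) lay below every wild-type array, without being called. Rnf5, which marks misfolded proteins for degradation, read 0.85, 0.74 and 1.33 on the wild-type arrays against -0.34 and 0.53 on the pair labelled Ets1/2 null (-0.88 ± 0.26, adjusted p = 0.0347). That call was lost when any 1 of 6 arrays was left out, at an adjusted p of 0.225 without the first array labelled Ets1/2 null. Rnf26, a ligase of the endoplasmic reticulum that holds endosomes near the nucleus, read 1.90, 1.62 and 0.95 on the wild-type arrays, 1.28, 1.17 and 1.34 on those without Ets1, 1.35, 1.39 and 0.91 on those without Ets2 and 0.14 and -0.53 where both are labelled null. It was 3.22-fold lower there than in wild type (-1.69 ± 0.30, adjusted p = 0.00417), and its second probe set was lower too (-3.36 ± 0.38, adjusted p = 0.000375). Of the 7 ligases built like Rnf130, with a protease-associated domain and a membrane span, only Rnf130 was called against wild type (28.3% of all genes were). Rnf13 gave 0.83 ± 0.28 (adjusted p = 0.0539), Rnf149 -0.65 ± 0.37 (adjusted p = 0.214) and Rnf167 -0.30 ± 0.26 (adjusted p = 0.422).

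Other RING genes were called higher on the centred values. Rnf181, whose promoter window holds the ETS core, read 1.78, 1.63 and 2.56 on the wild-type arrays against 3.45 and 3.41 on the pair labelled Ets1/2 null (1.44 ± 0.28, adjusted p = 0.00611). Rnf217, a ligase of the iron exporter ferroportin, read 1.66, 1.71 and 1.73 against 2.75 and 2.78 (1.07 ± 0.20, adjusted p = 0.00478). Rnf138, which acts in the repair of DNA breaks, differed by 0.97 ± 0.19 (adjusted p = 0.0063), and one of its other probe sets by 0.21 ± 0.16 (adjusted p = 0.342). Rnf141 differed by 0.94 ± 0.24 (adjusted p = 0.0197), and by 0.86 (adjusted p = 0.0882) without the first array labelled Ets1/2 null. Both of its other probe sets had the opposite sign (-0.22 ± 0.28, adjusted p = 0.575, and -0.72 ± 0.32, adjusted p = 0.115), and with the mean of all probe sets it was not called. None of these 4 was called on the deposited values, where the adjusted p was 0.0804 for Rnf181 and 0.171 for Rnf217.

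Of the 8 ligases of chromatin and the DNA damage response 3 were called higher (Rnf2, Rnf20 and Rnf111) and 1 lower (Rnf40), against 16.4% and 12% of all genes. On the deposited values none was higher and 2 were lower (2.32% and 43.6% of all genes). Rnf20 and Rnf40, partners in the ubiquitin mark on histone H2B, differed in sign. Rnf20 read 0.71, 0.59 and 0.81 on the wild-type arrays against 1.44 and 1.32 on the pair labelled Ets1/2 null (0.67 ± 0.12, adjusted p = 0.00474). Rnf40 read 0.44, 0.37 and 0.27 against -0.25 and -0.15 (-0.56 ± 0.12, adjusted p = 0.00752). A dimmer probe set of Rnf20 was lower (-0.93 ± 0.15, adjusted p = 0.00224), so the sign for Rnf20 depended on the probe set. Rnf2, the catalytic subunit of the Polycomb complex that marks histone H2A, differed by 0.70 ± 0.20 (adjusted p = 0.0278). Its other probe set was not called (0.42 ± 0.20, adjusted p = 0.135). Rnf220 was lower (-0.87 ± 0.14, adjusted p = 0.00273), as was Rnf216 (-0.92 ± 0.13, adjusted p = 0.00153). Rnf7, the RING partner of cullin 5, was lower by less (-0.51 ± 0.13, adjusted p = 0.0211), and that call was lost without the first array labelled Ets1/2 null (-0.43, adjusted p = 0.096) and with the mean of its probe sets. The second, also bright at a mean centred level of 1.96, had the opposite sign (0.16 ± 0.13, adjusted p = 0.377).

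Trim genes were called higher in 10 of 32 and lower in 1 (16.4% and 12% of all genes); on the deposited values the count was 0 higher and 8 lower (2.32% and 43.6% of all genes), and after quantile normalization 6 higher and 2 lower. Trim32, a ligase of muscle and nerve whose mutation causes a muscular dystrophy, read -0.27, 0.15 and 0.20 on the wild-type arrays against 1.27 and 1.38 on the pair labelled Ets1/2 null (1.30 ± 0.25, adjusted p = 0.00545). Trim24, a cofactor of nuclear receptors, differed by 0.92 ± 0.27 (adjusted p = 0.0324), and by 0.71 (adjusted p = 0.186) without the second array labelled Ets1/2 null. Trim46, which orders microtubules in axons, differed by 0.94 ± 0.20 (adjusted p = 0.00859). Trim28, the corepressor of KRAB zinc finger proteins and among the brightest members (3.30, 3.36 and 3.49 in wild-type), read 3.15 and 2.77 (-0.42 ± 0.15, adjusted p = 0.0682). Trim8, a regulator of NF-kappaB signalling, was the Trim gene called lower (-0.78 ± 0.24, adjusted p = 0.0388), and its dimmer probe set fell by more (-2.30 ± 0.33, adjusted p = 0.00108). The call of the brighter one was lost when any 1 of 7 arrays was left out, at an adjusted p of 0.212 without the first array labelled Ets1/2 null. Of the 17 ligases of inflammatory signalling 4 were called higher and 2 lower (16.4% and 12% of all genes). On the deposited values none was higher and 4 were lower (2.32% and 43.6% of all genes). On the centred values the interaction of Ets1 and Ets2 loss was called by limma in 0 of the 32 Trim genes (14.5% of all genes). At an unadjusted p under 0.05 there were 9 (31.3% of all genes). On the deposited values the interaction was called in 6, all negative (31.6% of all genes called). With a term for male arrays it was called in 2, Trim30a (2.63, adjusted p = 0.037) and Trim68 (-1.28, adjusted p = 0.0339), against 5.65% of all genes.

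Of the 18 falls, 4 were in the 15 Fbxl, 3 in the 10 Fbxw and 2 in the 28 Fbxo genes (12% of all genes were lower). The other falls were Rnf genes, Lnx1 and Trim8. Of 14 listed Fbxl genes 3 were called higher and 4 lower (16.4% and 12% of all genes). With both scalings none was higher and 4 were lower (256 higher and 1317 lower of all 11015 genes). Fbxl6 read -0.68, 0.02 and -0.01 on the wild-type arrays, 0.05, 0.33 and 0.65 on those without Ets1, -0.21, -0.05 and -0.05 on those without Ets2 and -2.32 and -1.76 where both are labelled null. Those 2 arrays lay below all others, 3.52-fold below wild type (-1.82 ± 0.27, adjusted p = 0.002). Fbxl15 (-1.01 ± 0.22, adjusted p = 0.0101), a receptor for Smurf1, and Fbxl19 (-0.89 ± 0.14, adjusted p = 0.00292), which binds CpG-rich DNA, were lower too. Fbxl4, a mitochondrial F-box protein that restrains mitophagy, was higher (1.09 ± 0.22, adjusted p = 0.00668; 0.80, adjusted p = 0.0512, without the second array labelled Ets1/2 null).

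Of the 10 F-box genes of the cell cycle 1 was called higher (Fbxw11) and 2 lower (Fbxo4 and Fbxo31), against 16.4% and 12% of all genes. On the deposited values none was higher and 8 were lower (2.32% and 43.6% of all genes). Fbxo31, a receptor for cyclin D1, differed by -1.29 ± 0.20 (adjusted p = 0.00264) and Fbxo4 by -0.67 ± 0.20 (adjusted p = 0.033; -0.43, adjusted p = 0.214, without the second array labelled Ets1/2 null). A second, dimmer Fbxo31 probe set, at a mean centred level of -1.49, was not called (-0.44 ± 0.29, adjusted p = 0.274). Fbxw11 (beta-TrCP2), a receptor for phosphorylated beta-catenin and IkappaB, read 2.76, 2.69 and 2.61 on the wild-type arrays against 3.62 and 3.41 on the pair labelled Ets1/2 null (0.83 ± 0.13, adjusted p = 0.00243). Another of its 4 probe sets was far lower (-3.37 ± 0.35, adjusted p = 0.000243). Fbxw5 read -0.13, 0.13 and 0.03 against -1.12 and -0.84 (-0.99 ± 0.17, adjusted p = 0.00363). Fbxw8, the F-box partner of cullin 7, was lower (-0.72 ± 0.16, adjusted p = 0.0111; -0.64, adjusted p = 0.0678, without the second array labelled Ets1/2 null), as was its second probe set (-0.86 ± 0.18, adjusted p = 0.0059). Fbxo8, whose window holds the ETS core, was higher on the centred values (0.96 ± 0.18, adjusted p = 0.00522). The 5 F-box receptors for glycoproteins, the 2 Siah genes and Fbxo32 (atrogin-1) were not called against wild type (28.3% of all genes were).

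**Figure D3:**
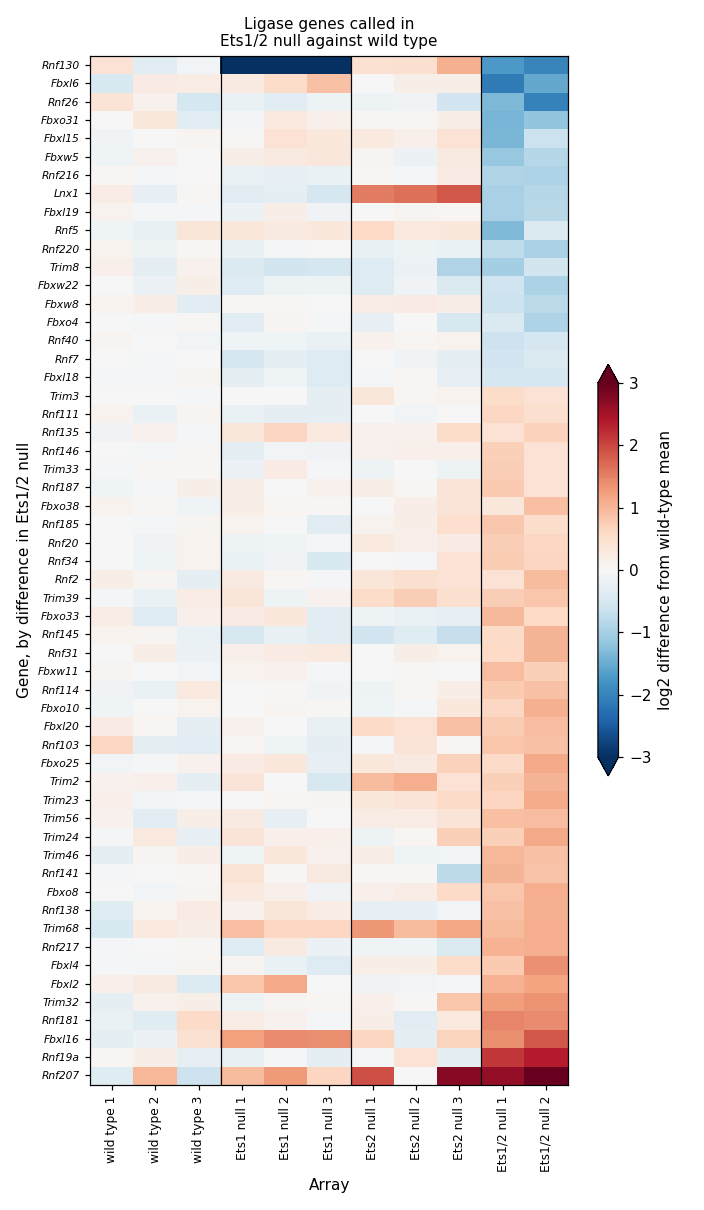
The 56 ligase genes called in the arrays labelled Ets1/2 null against wild type (rows) on the 11 arrays (columns); colour is the centred log2 difference from the wild-type mean, from -3 to 3. The 2 arrays labelled Ets1/2 null carry the 38 higher and 18 lower genes, and Rnf130 is the row that is also low in the Ets1 null arrays.

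Against the single nulls the arrays labelled Ets1/2 null gave similar counts. Compared with Ets1 null, 53 members were called, 37 higher and 16 lower (28.7% of all genes called; 17.4% higher, 11.3% lower), and on the deposited values 2 were higher and 61 lower, with 44.5% of all genes called. Called in both scalings were 18 members, 2 higher (Rnf130 and Rnf19a) and 16 lower, against 13% of all genes. Fbxl6 gave -2.39 ± 0.27 (adjusted p = 0.000603), Fbxw5 -1.26 ± 0.17 (adjusted p = 0.00137) and Rnf26 -1.46 ± 0.30 (adjusted p = 0.00778; -1.12, adjusted p = 0.0568, without the second array labelled Ets1/2 null). Fbxo6, which binds glycans of misfolded proteins, gave -0.85 ± 0.24 (adjusted p = 0.0271; -0.64, adjusted p = 0.158, without the first array labelled Ets1/2 null). Rnf11, a small RING protein of the A20 complex that dampens NF-kappaB, read 1.76, 1.64 and 1.79 in Ets1 null and 3.09 and 3.04 in the arrays labelled Ets1/2 null (1.34 ± 0.24, adjusted p = 0.0042). A second bright Rnf11 probe set, at a mean centred level of 1.92, differed by 0.04 ± 0.22 (adjusted p = 0.916), and a dim one by 1.11 ± 0.26 (adjusted p = 0.0117). In wild type Rnf11 read 2.13, 2.29 and 3.02. Without Ets1 null array 2 the count of members called was 35 (19.2% of all genes), and without array 3 it was 32 (18.2%).

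Compared with Ets2 null, 52 members were called, 30 higher and 22 lower (30.3% of all genes called; 17.1% higher, 13.2% lower), and on the deposited values 3 were higher and 70 lower, with 46.3% of all genes called. Called in both scalings were 25 members, 3 higher (Rnf19a, Rnf145 and Rnf217) and 22 lower, against 16.2% of all genes. Rnf145 gave 1.34 ± 0.18 (adjusted p = 0.0013) and Rnf217 1.30 ± 0.20 (adjusted p = 0.00192). Trim37 read -0.0001, -0.09 and -1.31 without Ets2 against 1.22 and 1.13 on the pair labelled Ets1/2 null (1.64 ± 0.35, adjusted p = 0.00847). Of its 4 dimmer probe sets, all with the same sign, 1 was called (1.11 ± 0.28, adjusted p = 0.0153). Rnf167 (-1.17 ± 0.26, adjusted p = 0.0101; -0.73, adjusted p = 0.0588, without the first array labelled Ets1/2 null) and Trim11 (-1.06 ± 0.29, adjusted p = 0.0225; -0.80, adjusted p = 0.138, without that array) were lower. This comparison sets 2 female against 3 male arrays. With a term for male arrays, which wild-type array 1 alone informs, 4 members were called (Fbxl6, Lnx1, Rnf19a and Rnf103) and 2.37% of all genes.

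Whether the effect of Ets2 loss differed with and without Ets1 was tested by the interaction, the difference between arrays labelled Ets1/2 null and Ets1 null minus that between Ets2 null and wild type. It was called in 23 members, 9 positive and 14 negative (14.5% of all genes; 7.54% positive, 6.94% negative), and on the deposited values in 50, 2 positive and 48 negative (31.6% of all genes). Both scalings called it in 16 members, 2 positive and 14 negative, against 8.44% of all genes. Lnx1 had the effect -2.23 ± 0.23 (adjusted p = 0.00095), made up of 1.69 in cells with Ets1 and -0.54 in cells without. Rnf19a (2.39 ± 0.30, adjusted p = 0.00211) and Rnf145 (1.68 ± 0.25, adjusted p = 0.00391) were positive in both scalings. The second Rnf19a probe set was not called (0.31 ± 0.31, adjusted p = 0.53). Fbxl6 was at -2.51 ± 0.36 (adjusted p = 0.00357), Fbxw5 at -1.31 ± 0.23 (adjusted p = 0.00796) and Rnf5 at -1.59 ± 0.35 (adjusted p = 0.0194). For Rnf130 it was 1.10 ± 0.38 (adjusted p = 0.0836). With a term for male arrays 12 members had a called interaction, Lnx1 (-2.01), Rnf19a (2.45), Rnf145 (1.78), Fbxl6 (-2.96) and Fbxw5 (-1.45) among them, against 5.65% of all genes.

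Probe sets of one gene often disagreed in the arrays labelled Ets1/2 null. Of 67 members with several probe sets, the brightest and the next brightest had the same sign in 52 (77.6%) for Ets1 null, 53 (79.1%) for Ets2 null and 40 (59.7%) for the arrays labelled Ets1/2 null against wild type. For all genes with several probe sets the shares were 79.6%, 78.6% and 61.8%. Of the 56 members called against wild type 33 have 1 probe set and 23 have others. In 9 of these another probe set was called in the same direction (Fbxl20, Fbxw8, Rnf103, Rnf114, Rnf138, Rnf217, Rnf26, Trim33 and Trim8), and in 7 one was called in the opposite direction (Fbxw11, Rnf114, Rnf146, Rnf187, Rnf20, Rnf207 and Trim2). Rnf114 is in both groups: its brightest probe set was higher (0.83 ± 0.17, adjusted p = 0.00827), another far lower (-2.77 ± 0.24, adjusted p = 0.000103).

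**Figure D4:**
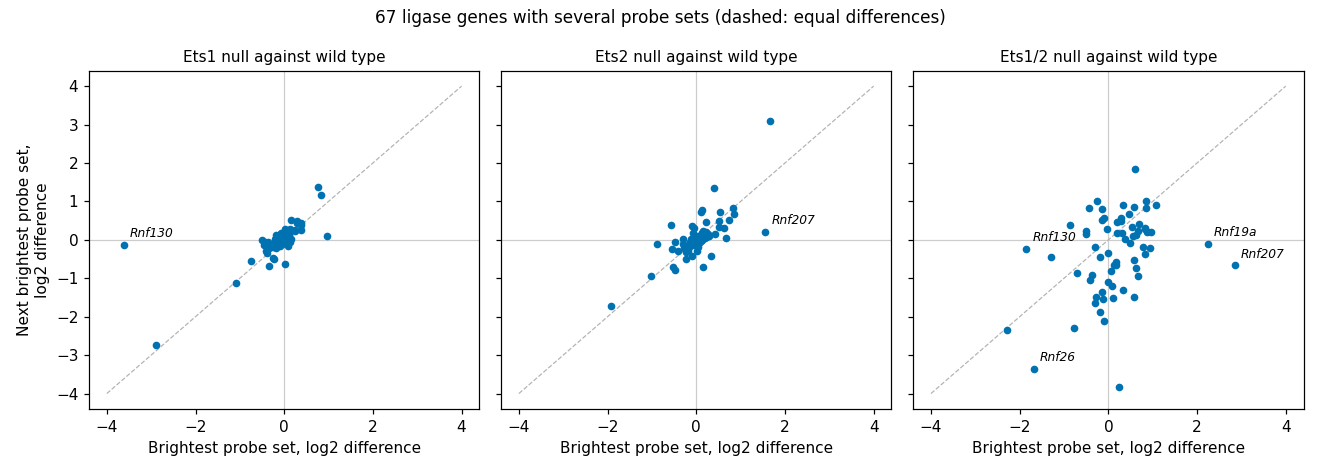
Log2 difference from wild type of the brightest (horizontal) and next brightest probe set (vertical) for the 67 ligase genes with several, in Ets1 null, Ets2 null and the arrays labelled Ets1/2 null. Points lie in the same-sign quadrants for 52, 53 and 40 genes.

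The rest of the ubiquitin system, listed by symbol, had no gene called in either single null: 36 E1 and E2 enzymes, 22 HECT ligases, 28 cullin ligase parts, 60 deubiquitinases, 47 proteasome genes and the 6 Marchf genes. At limma's unadjusted p under 0.05 these lists had, in that order, 4, 4, 0, 11, 3 and 0 genes in Ets1 null, against 8.71% of all genes. In Ets2 null they had 6, 3, 3, 13, 6 and 1, against 18.9% of all genes. Symbols were matched by prefix, so the lists hold genes that are no such enzyme or subunit, among them Usp6nl with the deubiquitinases and Psmc3ip and Psme3ip1 with the proteasome genes. In Ets2 null 45 of the 47 genes with a proteasome prefix were below wild type, all but Psmc3ip (0.22) and Psme3ip1 (0.16). Their median was -0.23 against -0.01 for all genes, so more genes than not were below wild type over the whole table as well. Sex and the Ets2 null group went together except for wild-type array 1, and the part of sex in these values was not tested. An unadjusted p under 0.05 was reached by 6 of the 47, against 18.9% of all genes. Herc3, a HECT ligase, was at -1.57 ± 0.25 (adjusted p = 0.127) in Ets1 null and 0.998 ± 0.25 (adjusted p = 0.098) in Ets2 null. In the arrays labelled Ets1/2 null 18 of the 47 proteasome genes were called lower and 1 higher against wild type (12% of all genes lower), with a median of -0.39. All 18 were also lower on the deposited values, where 39 were (43.6% of all genes). After quantile normalization 23 were lower (25.6% of all genes called in either direction). Psmd13 (-2.90 ± 0.30, adjusted p = 0.000423) and Psmd3 (-1.97 ± 0.16, adjusted p = 0.000213), lid subunits of the 19S particle, had the smallest adjusted p. Among E1 and E2 enzymes 7 were called higher and 5 lower, among HECT ligases 5 and 3, among cullin parts 3 and 7, among deubiquitinases 9 and 7, and among Marchf genes 2 and 0 (16.4% and 12% of all genes). On the deposited values these became 1 and 21, 0 and 9, 0 and 20, 0 and 23, and 0 and 1 (2.32% and 43.6% of all genes). Ube2s, the E2 of the anaphase-promoting complex, was lower (-2.98 ± 0.40, adjusted p = 0.00136), and Ube2e2 was higher in both scalings (1.58 ± 0.18, adjusted p = 0.000759).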

How the data were processed

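RNA of aortic endothelial cells was measured on Affymetrix mouse arrays, 1 channel each. The deposited table gives log2 intensities by probe set. The submitters' processing notes name RMA, and its version is not given in the sources used here. A gene was read from its brightest probe set on average (20523 probe sets; 18824 with 1 symbol, 549 with several and 1150 with none; 11015 genes). From every array its own median, taken over all genes, was subtracted. limma 3.58.1 in R 4.3.3 estimated labelled group means from 11 arrays (lmFit and eBayes, two-sided, 7 residual degrees of freedom), with calls at an adjusted p under 0.05 (Benjamini-Hochberg over all genes). Errors are limma's SE. The number of arrays sets the precision. The fit was also run on simulated data with independent noise and 1 spread per gene. Those data held no shift between arrays and no sex difference, so they cannot speak to either. Plots were drawn with matplotlib 3.10.9 from tables made with pandas 2.3.3.

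The members, the gene lists and the tests were chosen with earlier results of these data known. Named members were Rnf130 and Lnx1, up to 10 rises and 10 falls against wild type that were called, without overlap and above the median in the brighter group (with fewer than 10 called, the 8 largest without overlap), 6 and 6 against each single null, 5 and 5 for the interaction, and up to 3 per role by level. Named outside this rule, with values in view, were Fbxl15, Fbxl18, Fbxl19, Fbxo5, Fbxo31, Fbxw22, Rnf103, Rnf207, Rnf216, Trim30a, Trim46 and those named for their other probe sets. Alternatives changed the centring, normalization, probe sets, arrays, block, sex and weights, or left out arrays in turn.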

Additional observations from a re-analysis of the deposited data

Results flagged for a closer look

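In 10 members, what Ets2 loss did without Ets1 (arrays labelled Ets1/2 null against Ets1 null) differed from what it did with Ets1 (Ets2 null against wild type) by the interaction test of limma, at an adjusted p under 0.05. The differences between both effects were 2.39 for Rnf19a, 1.68 for Rnf145, 1.53 for Rnf11, 1.4 for Rnf217 and 1.31 for Rnf181 (log2, centred). They were -2.51 for Fbxl6, -2.23 for Lnx1, -1.59 for Rnf5, -1.31 for Fbxw5 and -1.27 for Rnf167. Over 18 or 19 alternatives the calls of Rnf19a, Rnf145, Fbxl6, Lnx1 and Fbxw5 were kept. Those of Rnf11 (adjusted p up to 0.122) and Rnf217 (up to 0.0874) were lost on the deposited values and with a term for male arrays, and that of Rnf5 (up to 0.063) with that term and with the replicate block. Rnf181 lost its call in 12 of 19 alternatives (adjusted p up to 0.33) and Rnf167 in 11 (up to 0.11), among them any 1 of 8 and of 9 of the 11 arrays left out. The second Rnf19a probe set, at a mean centred level of -0.50, gave 0.31 ± 0.31 (adjusted p = 0.53). A second Rnf11 probe set, at a mean centred level of 1.92, gave 0.20 ± 0.29 (adjusted p = 0.674). These are the members with the largest called interactions on each side, and the level of Ets1 on its brightest probe set in the arrays labelled Ets1/2 null goes against that label. Ets2 on its brightest probe set was not lower on that pair either (0.94 and 2.28, against 0.81 to 1.05 in Ets1 null and 0.35 to 1.21 in wild type).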

How the results depend on the processing

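Over 76 pairs of a named gene and a comparison, 1344 of 1496 alternative values kept their direction and side of the threshold, 145 lost and 7 gained the call, and 0 changed sign. Most pairs were picked for large differences without overlap, so a change of sign was unlikely from the start. Fitting only the arrays compared leaves each difference as it was. The lack of sign changes is therefore no measure of robustness. Fitting only the arrays compared called 0 members in Ets1 null, 0 in Ets2 null (0% of all genes in both), 17 in the arrays labelled Ets1/2 null against wild type (12%) and 31 against Ets2 null (17.1%). Array weights called 2 in Ets1 null (Rnf130 and Fbxl16; 1.42% of all genes) and 13 in Ets2 null (9.85%). With all 12 columns 3 members were called in Ets2 null (Lnx1, Rnf166 and Trim68; 2.96%) and 46 in the interaction (23.9%), where the deposited values gave 50 (31.6%). Without the dimmest genes, Lnx1 among them, 0 were called in Ets2 null (0.436%). A term for male arrays left 0 in Ets2 null (0.0363%), 4 against Ets2 null (2.37%) and 12 in the interaction (5.65%). The cause of these shifts was not tested beyond what each setting removes or adds. Leaving out each array in turn gave 1 to 1 member in Ets1 null, 1 to 2 in Ets2 null, 35 to 58, 32 to 60 and 35 to 54 for the arrays labelled Ets1/2 null against wild type, Ets1 null and Ets2 null, and 16 to 29 in the interaction; the shares of all genes called were 0.00908% to 0.209%, 0.0182% to 0.672%, 17.5% to 31.1%, 18.2% to 32%, 20.7% to 33.1% and 8.37% to 15.2%. Same-numbered arrays deviated together (r above 0.1) in 1 of 15 pairs, with r from -0.325 to 0.104. These are deviations from means of 2 or 3 arrays, so they cannot decide whether the numbers pair the arrays. With the replicate number as a block the counts were 1, 0, 43, 40, 45 and 16 (0.0363%, 0%, 22.9%, 22.9%, 24.5% and 8.91% of all genes). Adding the 6 Marchf genes, a choice made after seeing the data, gave 1, 1, 58, 56, 54 and 24, with all genes called as before. The number of arrays limits the precision: for Lnx1 limma's SE was 0.17 where the 2 arrays labelled Ets1/2 null entered and 0.15 between groups of 3.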
